A study of Mus musculus with 72 samples.

Results

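Blood monocytes were followed in irradiated mice through 9 genes whose products mark or control these cells, namely Csf1r, Cx3cr1, Nr4a1, Cd14, Fcgr4, Fcgr1, Ace, Spn and Treml4. The genes were chosen by name, and each was read from its brightest detected probe. Of the 9, all were detected and 8 were among the 10863 genes that passed the filters and were tested. Spn varied too little between arrays to pass the filter on variation, and its tests come from a fit over all 16098 detected genes.

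Whole blood was taken by heart puncture from 72 male C57BL/6 mice, 8 to 10 weeks old when exposed, and the RNA of each mouse was depleted of globin transcripts and hybridized to 1 single-colour array. Mice received 0.25 Gy or 1 Gy of neutrons from an accelerator beam that also carries some gamma rays, or 1 Gy or 4 Gy of orthovoltage x-rays. Controls were sham-irradiated, which means that they went through the same handling and restraint with the beam off. Blood was drawn on day 1 or day 7 in all of these groups, and on day 3 in controls and in the mice given 0.25 Gy neutrons or 1 Gy x-rays, with 5 or 6 mice in each of 13 groups. No cells were sorted, so that a lower level of a gene can mean fewer monocytes or less of its RNA in each, and these cannot be told apart. The study asked how neutron and x-ray responses differ, and each exposure was compared here with the controls of its day and the 1 Gy neutron groups with the x-ray groups.

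Mouse monocytes leave the bone marrow as classical, Ly6C-high cells, which enter inflamed tissue, and part of them convert in the circulation to non-classical, Ly6C-low cells, which patrol the inside of blood vessels. Survival of the lineage depends on the CSF1 receptor, and the non-classical cells depend on the orphan nuclear receptor NR4A1 and on the fractalkine receptor CX3CR1. In mouse blood Fcgr4, Ace, Spn and Treml4 are typical of the non-classical cells, while Cd14 and Fcgr1 are stronger in classical cells and in macrophages.

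A level is the log2 of the background-corrected intensity less the median of the detected probes of its array, and a difference of 1 on this scale is a doubling. Calls required a limma p below 0.001 together with a false discovery rate (FDR) below 5%. The name of each array gave the same exposure and day as its label for 72 of 72 arrays. All 9 probes were well above background on 72 of 72 arrays and none was saturated. Across the arrays, 40.2 to 67.3% of spots were well above background. Of the 72 arrays, 3 stood apart from their groups, replicate 5 of 0.25 Gy neutrons at day 1, replicate 4 of 1 Gy neutrons at day 1 and replicate 1 of 1 Gy x-rays at day 3, whose median correlations with the other mice of the group were 0.886, 0.891 and 0.862 against 0.948 or more for the next lowest mouse.

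Cells from outside the blood were looked for with marker lists, each summed up as the mean log2 level over its genes on the array. Of 20 hepatocyte genes, 19 were on the array and 8 were detected. Their mean level ran from -1.02 to 6.45 in the day 1 controls and from 7.22 to 8.35 after 4 Gy x-rays at day 1, so that these groups did not overlap, and from -4.90 to -3.07 in the day 7 controls. The 9 Kupffer cell genes, of which 8 were detected, ran from -2.75 to -0.40 in the day 1 controls and from 0.87 to 3.81 after 4 Gy x-rays at day 1. Their brightest members were Cd5l and C1qc. Emcn, of the endothelium list, was well above background on no array. Among the 13 groups the mean levels of the B cell, T cell, dendritic cell, eosinophil and basophil, and erythroid genes were lowest after 4 Gy x-rays at day 1. There the B cell genes ran from -1.75 to -0.36 and the erythroid genes from -1.36 to 1.03, against 2.17 to 2.95 and 3.20 to 4.53 in the controls. The T cell genes, at 1.31 to 2.45 against 2.90 to 3.48, and the dendritic cell genes, at -1.65 to -0.95 against -0.88 to -0.55, did not overlap the controls either, and the part of these cells in the changes of single genes was not tested.

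**Figure D1:**
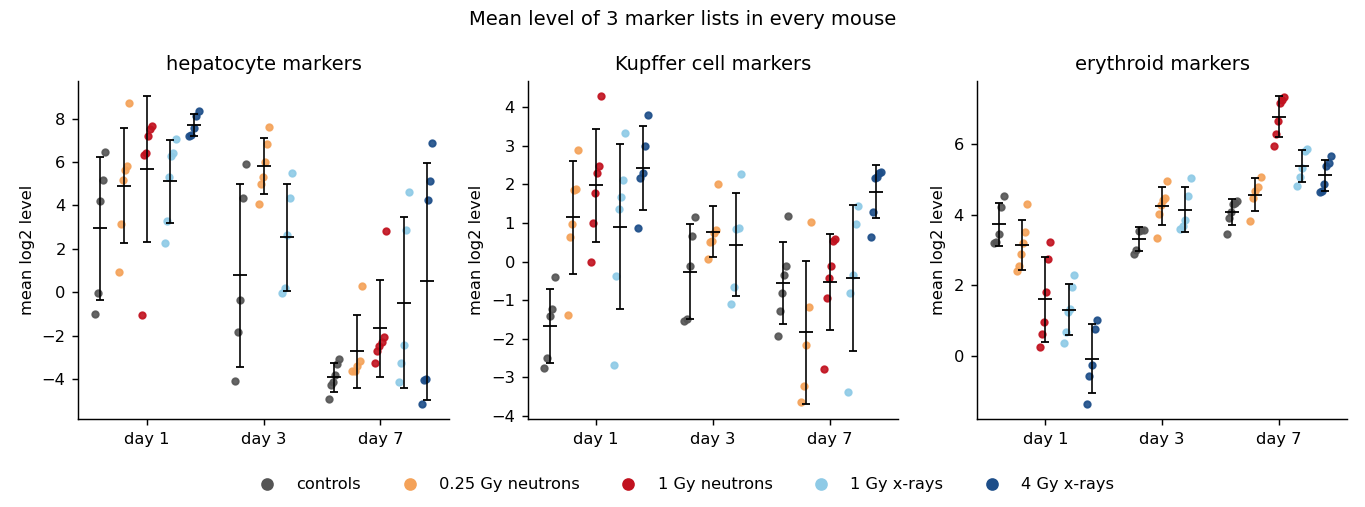
Mean log2 level of the hepatocyte, Kupffer cell and erythroid marker genes (vertical axes) in each mouse by day and exposure, with points sorted within a group, and with the mean and SD in black. The 5 mice given 4 Gy x-rays lie above all controls for hepatocyte and Kupffer cell genes at day 1 and below them for erythroid genes, and erythroid genes are highest after 1 Gy neutrons at day 7, from 5.94 to 7.32.

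One day after 4 Gy x-rays, 5 of the 8 members in the fit were called, 4 lower and 1 higher, where 35.1% of all genes tested were called in this comparison, 18.6% lower and 16.5% higher. The lower genes were Cx3cr1, Ace, Nr4a1 and Treml4. The higher gene was Cd14. The median difference of the 8 members was -0.60, against 0.00 over all genes. No scan date held both 4 Gy x-ray mice and controls at day 1, so that exposure cannot be told apart from date here. With date as a random block, for which the estimated correlation was -0.04, the same 5 members were called. This block cannot separate date from exposure, since no date held both groups.

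Cx3cr1, the receptor for fractalkine that holds patrolling cells to the endothelium, stood at 3.02, 2.69, 2.33, 2.96 and 2.79 in the 5 controls and at 0.83, 0.06, -0.29, 1.17 and 1.39 in the 5 irradiated mice. Every irradiated mouse lay below every control. The difference of -2.13 ± 0.32 (SE), a level 4.38-fold lower, had an adjusted p of 0.000219 (limma).

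Ace, which encodes angiotensin-converting enzyme and is carried by non-classical monocytes, had levels of -0.07, 0.72, -0.12, 0.44 and 0.40 in controls and of -1.12, -2.05, -1.91, -1.06 and -1.06 after 4 Gy. The groups did not overlap, and the difference was -1.72 ± 0.27, a level 3.28-fold lower (adjusted p = 0.000297). Nr4a1, the nuclear receptor required by the non-classical cells, went from 3.31, 3.83, 3.31, 3.70 and 3.69 to 2.32, 1.40, 1.39, 2.65 and 2.76. It too lay lower in each irradiated mouse than in any control, with a difference of -1.47 ± 0.30 (adjusted p = 0.0014).

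Treml4, a TREM family receptor of non-classical monocytes and some dendritic cells, went from -1.44, -0.91, -0.99, -0.80 and -0.78 to -1.80, -2.66, -2.53, -1.66 and -2.02. The groups did not overlap, and the difference was -1.15 ± 0.25 (adjusted p = 0.0018). Among the remaining members, Spn, the sialophorin CD43, differed by -0.92 ± 0.31 (adjusted p = 0.0249 over all detected genes, not called).

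Cx3cr1, Ace, Nr4a1 and Treml4 had the same sign under every setting tried, but not all kept their calls. Without 1 mouse, Nr4a1 lost its call in 4 of 10 fits (control replicates 2, 4 and 5, 4 Gy replicate 2), with differences from -1.43 to -1.29, and Treml4 in 7 of 10 (control replicates 2, 3, 4 and 5, 4 Gy replicates 2, 3 and 5), with differences from -1.18 to -1.02. With the hepatocyte or the Kupffer cell level of each mouse as a covariate none of the 4 was called. The differences were -2.01 and -1.45 for Cx3cr1, -1.30 and -1.54 for Ace, -1.13 and -1.18 for Nr4a1 and -0.97 and -0.92 for Treml4. Neither marker level overlapped between these groups, so that these fits separate the covariate from exposure poorly. With normexp background correction, which models the background instead of subtracting it, Cx3cr1 was called at -1.87, while Nr4a1 at -1.50, Ace at -0.68 and Treml4 at -0.30 were not. This correction also added an offset of 50 to each signal, where median signals of the arrays ran from 9.52 to 156.5. The part of the offset in the smaller differences was not tested. Treml4 was also not called without the detection filter or with the replicate number as a block, at -1.15 in both. With arrays centred on spike-in controls, RNA added in a known amount, 1 member was called higher and 2 lower, without Nr4a1 (-1.22) and Treml4 (-0.90).

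Cd14, the co-receptor through which TLR4 senses bacterial lipopolysaccharide, stood at -3.29, -1.81, -3.65, -2.10 and -2.99 in the controls and at -1.66, -0.91, 1.05, 0.94 and 0.46 after 4 Gy. All 5 irradiated mice were above all controls. The difference was 2.74 ± 0.54 (adjusted p = 0.00104), a level 6.70-fold higher, and -0.13 with the Kupffer cell level as a covariate, a setting added after the data were seen, and 1.60 with normexp correction, neither of them called. As the Kupffer cell levels of the groups did not overlap, the covariate fit separates them from exposure poorly. Without control replicate 1 the difference was 2.61, and p lay just above the threshold, at 0.00102.

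Csf1r, the receptor for CSF1 and IL-34, differed from controls by -0.05 ± 0.27 at this dose and day (adjusted p = 0.868), with levels of 4.37 to 5.42 that overlapped those of the controls. The Fc receptor genes were not called. Fcgr4, which encodes an activating receptor for IgG on non-classical cells, differed by 0.80 ± 0.40 and Fcgr1, the high-affinity IgG receptor, by 0.67 ± 0.35.

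**Figure D2:**
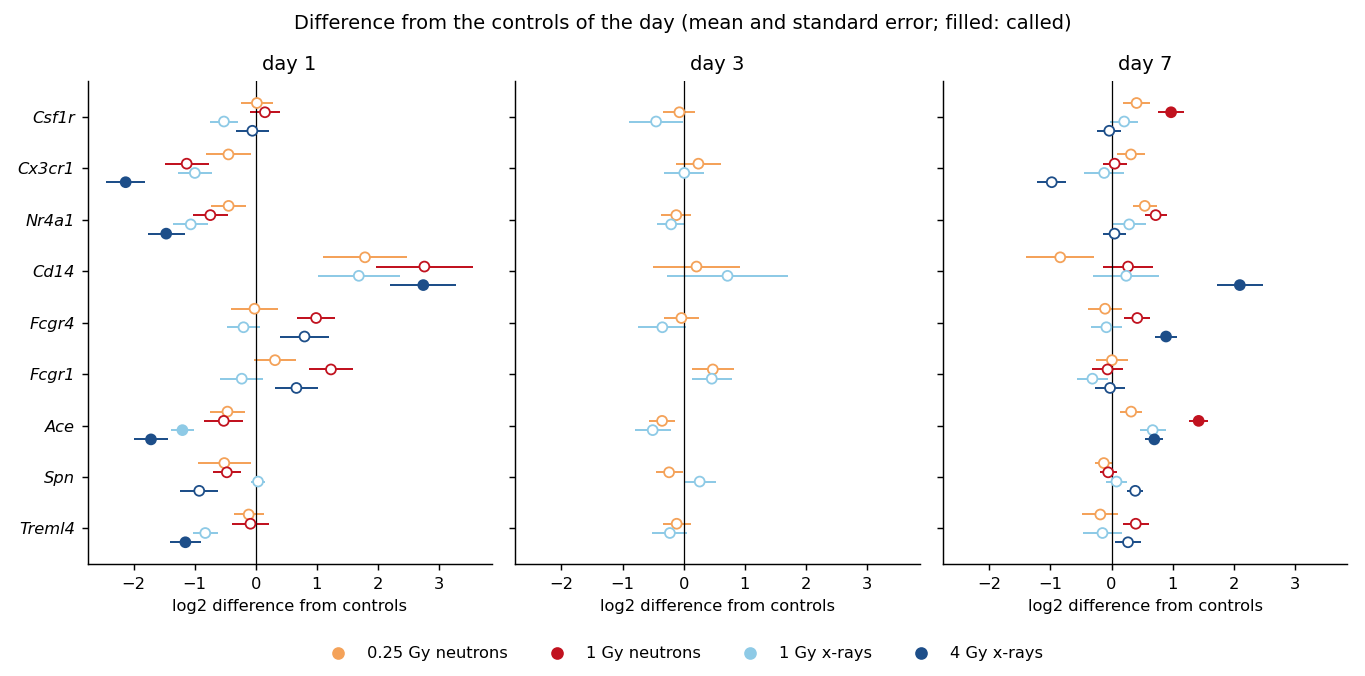
Difference of each exposure from the controls of its day (horizontal axes, log2) for the 9 genes (vertical axis), with points at the mean, bars of 1 standard error and filled points for called genes, Spn being taken from the fit over all detected genes. Called points lie left of 0 for Cx3cr1, Nr4a1, Ace and Treml4 at day 1 and right of 0 for Ace at day 7, although with spike-in centring Ace and Csf1r after 1 Gy neutrons at day 7 lay left of 0, and with the Kupffer cell level as a covariate Cd14 after 4 Gy x-rays at day 1 lay at -0.13.

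The 4 lower genes lie on different chromosomes, and the 250 bases before their annotated starts are printed because these genes moved together. The sequences are those of RefSeq on GRCm38.p6, which gave 7 of the 9 members. Printed 5′ to 3′ on the strand of the gene, capitals mark GAGGAA, the core of sites of the myeloid factor PU.1, and TGACG, part of the cyclic AMP response element, each on either strand. These motifs do not overlap here, and they were chosen after the windows had been seen.
Cx3cr1, chr9:120068297-120068546, minus strand: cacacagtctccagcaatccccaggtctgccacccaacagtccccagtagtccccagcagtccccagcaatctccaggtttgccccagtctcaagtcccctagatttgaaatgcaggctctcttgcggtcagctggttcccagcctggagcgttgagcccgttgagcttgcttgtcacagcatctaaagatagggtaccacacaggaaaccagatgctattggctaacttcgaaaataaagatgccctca
Nr4a1, chr15:101266596-101266845, plus strand: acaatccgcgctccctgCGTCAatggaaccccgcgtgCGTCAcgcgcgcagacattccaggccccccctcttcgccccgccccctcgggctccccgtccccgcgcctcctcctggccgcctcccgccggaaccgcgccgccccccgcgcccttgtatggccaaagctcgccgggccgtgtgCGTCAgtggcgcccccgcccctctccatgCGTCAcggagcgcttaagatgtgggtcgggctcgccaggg
Ace, chr11:105967698-105967947, plus strand: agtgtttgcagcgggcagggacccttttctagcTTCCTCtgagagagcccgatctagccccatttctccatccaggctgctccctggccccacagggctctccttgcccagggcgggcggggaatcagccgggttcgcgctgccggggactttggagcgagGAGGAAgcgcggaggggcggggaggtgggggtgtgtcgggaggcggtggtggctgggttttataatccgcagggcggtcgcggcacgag
Treml4, chr17:48264045-48264294, plus strand: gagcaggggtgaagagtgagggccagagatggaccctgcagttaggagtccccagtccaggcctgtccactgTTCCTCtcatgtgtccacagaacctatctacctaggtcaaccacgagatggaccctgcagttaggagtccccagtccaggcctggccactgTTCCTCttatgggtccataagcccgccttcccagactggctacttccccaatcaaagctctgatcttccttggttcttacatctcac

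The Nr4a1 window held TGACG 4 times, 233, 213, 69 and 40 bases before the start. No other member with a window had it, and Csf1r and Cd14 had no window. Of 32841 windows of this length, 17.8% held it at least once and 0.137% held it 4 times or more. GAGGAA was in the windows of Treml4, Ace, Fcgr4 and Fcgr1 and in 23.3% of all windows. It was not among the letters before Cx3cr1, Nr4a1 and Spn, nor before a further start listed for Ace.

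At the same day 1 Gy x-rays gave 1 called member of 8, Ace, which was lower, where 7.65% of all genes were called and 4.56% were called lower. Its levels ran from -1.32 over a median of -0.90 to -0.68, below every control. The difference was -1.20 ± 0.19 (adjusted p = 0.00282), a level 2.30-fold lower. Cx3cr1 and Nr4a1 also lay below all controls in 6 of 6 mice, with differences of -1.00 ± 0.28 (adjusted p = 0.0267) and -1.06 ± 0.29 (adjusted p = 0.0229), but their p-values missed the threshold. Treml4 differed by -0.83 ± 0.20 (adjusted p = 0.0166). With scan date as a random block Ace differed by -1.17 and was not called (adjusted p = 0.0867), and no scan date held both groups. It was also not called with spike-in centring, at -1.06, or normexp correction, at -0.82. Without replicate 2 of the x-ray mice Nr4a1, at -1.22, and Treml4, at -0.92, were called, and without control replicate 1 Treml4, at -0.94.

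After 1 Gy neutrons at day 1, 0 of 8 members were called by limma, where 17.5% of all genes were called. An unadjusted p below 0.05 was reached by 5 members. Cd14 ran from -2.27 over 0.07 to 2.65, with 4 of 6 mice above all controls and the other two among them, and differed by 2.76 ± 0.80 (adjusted p = 0.0151). Fcgr1 and Fcgr4 also had 4 of 6 mice above all controls, with differences of 1.23 ± 0.37 and 0.99 ± 0.31. Cx3cr1 lay below all controls in 5 of 6 mice and differed by -1.13 ± 0.36 (adjusted p = 0.0225). With the Kupffer cell level as a covariate Cd14 differed by -1.00, Fcgr1 by -0.03 and Cx3cr1 by 0.15. The Kupffer cell levels of these groups did not overlap, so that this fit separates them from exposure poorly. With the slide, taken from a shared scan time, as a random block, Cd14, Fcgr1 and Fcgr4 were called, at 2.77 ± 0.61, 1.32 ± 0.30 and 1.04 ± 0.24. The estimated block correlation was negative, at -0.16, and the standard errors were smaller than without the block. With a spread shared over all groups Cd14 and Fcgr1 were called. Of the mice, 4 shared a scan date with the controls, within which Cx3cr1 differed by -1.03 and Cd14 by 2.73. Without replicate 4, which stood apart, the differences of these genes kept their sign, at 2.49 for Cd14 and -1.25 for Cx3cr1, and without replicate 2 Cx3cr1 was called, at -1.37.

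After 0.25 Gy neutrons at day 1 no member was called by limma, where 0.00921% of all genes were, and 1 member, Cd14, had an unadjusted p below 0.05. The differences of Cx3cr1, Nr4a1, Ace and Spn from controls were -0.45, -0.44, -0.46 and -0.51, and -0.12, -0.21, -0.25 and -0.09 without replicate 5, which stood apart.

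Levels of the same gene after the same dose of both radiations were set side by side. At day 1, Fcgr4 was the 1 member of 8 called for 1 Gy neutrons against 1 Gy x-rays, where 9.05% of all genes were called, 1.33% higher after neutrons. It ran from 2.33 over 2.97 to 3.50 after neutrons and from 1.25 over 1.79 to 2.12 after x-rays, without overlap, and the difference of 1.19 ± 0.23 (adjusted p = 0.00425) made a level 2.28-fold higher after neutrons. On the 1 scan date that held both groups, with 2 and 4 mice, Fcgr4 differed by 0.94, and it was not called with that date as a block (adjusted p = 0.213), nor with the slide as a block, at 1.42 (adjusted p = 0.849). Fcgr1 differed by 1.46 ± 0.37 in the same direction (adjusted p = 0.0151, not called).

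Against 4 Gy x-rays, 1 Gy neutrons gave 0 of 8 called members at day 1 in limma, where 0.0552% of all genes were called, and 3 members had an unadjusted p below 0.05. Ace lay higher in 6 of 6 neutron mice than in any x-ray mouse, with a difference of 1.19 ± 0.34 (adjusted p = 0.172).

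At day 3 no member was called by limma after 0.25 Gy neutrons or 1 Gy x-rays, where 1.17% and 2% of all genes were called, and none had an unadjusted p below 0.05. Ace had a difference of -0.35 ± 0.22 after neutrons and -0.51 ± 0.29 after x-rays. Csf1r differed by -0.45 after x-rays, and by -0.01 without replicate 1, which had a level of 2.80.

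**Figure D3:**
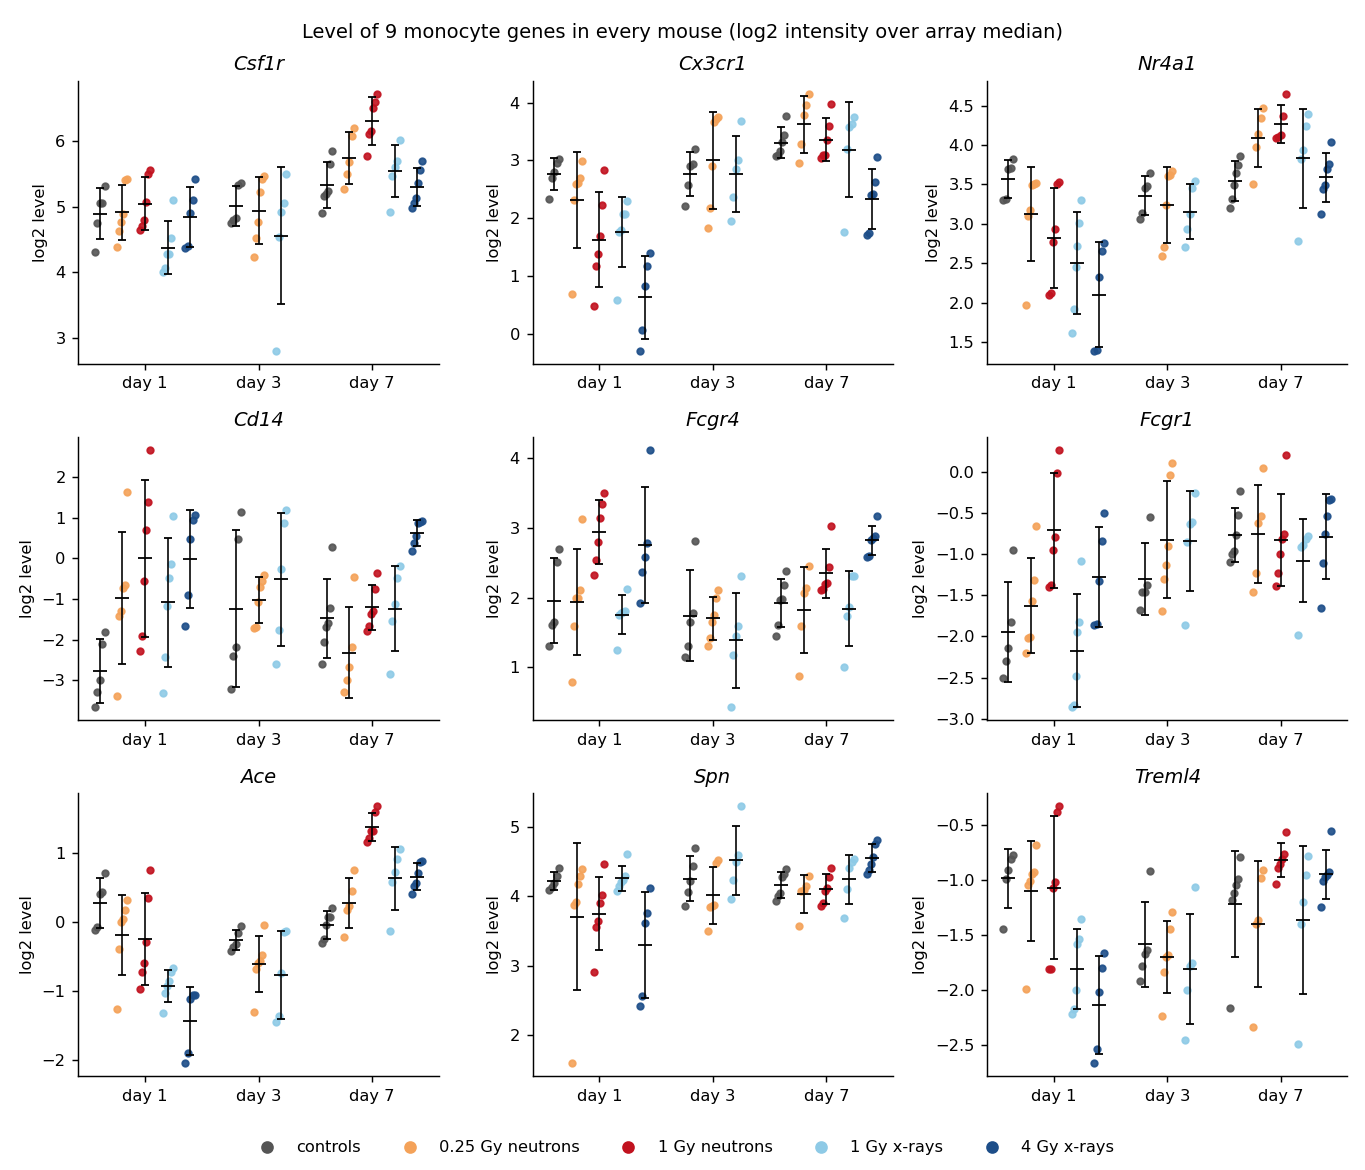
Log2 level of each of the 9 genes (vertical axes, a panel a gene, scales differ) in every mouse by day and exposure, with points sorted within a group and the mean and SD in black. At day 1 Cx3cr1, Nr4a1, Ace and Treml4 are lowest after 4 Gy x-rays, and at day 7 Ace is highest after 1 Gy neutrons, from 1.17 to 1.68, a place that it loses with spike-in centring.

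At day 7, 2 of 8 members, Ace and Csf1r, were called after 1 Gy neutrons, both higher, where 38.4% of all genes were called, 25.1% higher, and the median of all genes was itself 0.31. Ace stood at -0.31 over 0.01 to 0.20 in controls and at 1.17 over 1.32 to 1.68 after neutrons. All 6 irradiated mice were above all controls, and the difference of 1.43 ± 0.15 (adjusted p = 5.77e-06) was a level 2.69-fold higher. Csf1r ran from 4.91 over 5.21 to 5.86 in controls and from 5.77 over 6.33 to 6.72 after neutrons, with 5 of 6 mice above all controls and 1 among them, and differed by 0.97 ± 0.21 (adjusted p = 0.00146).

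The direction of these differences rested on the scaling. The arrays of 1 Gy neutrons at day 7 were the dimmest, with 40.2 to 50.3% of spots well above background, and their erythroid genes stood at 5.94 to 7.32, against 3.43 to 4.38 in controls. Of all genes called, 2723 were higher and 1443 lower. With spike-in centring these counts were 88 and 5994, the median of all genes moved to -1.75, Ace differed by -0.63 and Csf1r by -1.08, neither called, and 5 other members were called, all lower. With quantile normalization, with 1965 genes higher and 1752 lower and a median of all genes of 0.02, Ace differed by 1.39 and was called, and Csf1r differed by 0.16. With normexp correction Ace differed by 0.68 and Csf1r by -0.45, and neither was called. With dim spots set to missing they differed by 0.89, called, and 0.44, not called. The other 2 probes of Csf1r differed by 0.56 and 0.94. Of the neutron mice, 1 shared a scan date with the controls, within which Ace differed by 1.63. With scan date as a block Csf1r differed by 0.44 and was not called, and its call was lost in 7 of 12 fits without 1 mouse (control replicates 2, 3, 4 and 5, neutron replicates 4, 5 and 6), with differences from 0.89 to 0.95.

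Nr4a1 had 5 usable spots in this group, since 1 was flagged as non-uniform. All 5 lay above all controls, from 4.09 to 4.65 against 3.20 to 3.86, with a difference of 0.72 ± 0.18 (adjusted p = 0.0043) that missed the threshold on p. With spike-in centring it was called lower, at -1.39. Cx3cr1 differed by 0.05 ± 0.20 and Cd14 by 0.27 ± 0.41, and both overlapped the controls. The probes of Cx3cr1 disagreed, the others giving 0.02 and 1.03.

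With 4 Gy x-rays at day 7, 3 of 8 members were called, all higher, where 17.6% of all genes were called, 9.06% higher. Cd14 ran from 0.17 over 0.70 to 0.92, against -2.59 over -1.64 to 0.26 in controls, with 5 of 6 mice above all controls. Its difference was 2.10 ± 0.38 (adjusted p = 0.00104), a level 4.29-fold higher, and 0.37 with the Kupffer cell level as a covariate. The Kupffer cell genes ran from 0.64 to 2.32 in these mice and from -1.92 to 1.18 in controls, and the hepatocyte genes from -5.14 to 6.88.

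Fcgr4 ran from 2.59 over 2.84 to 3.16 and lay above all controls, which ran from 1.45 over 1.97 to 2.38. The difference was 0.89 ± 0.18 (adjusted p = 0.00221), with 0.91 in the fit with the Kupffer cell level as a covariate, where it was not called (adjusted p = 0.146), and 0.96 in that with the hepatocyte level, where it was. Ace, at 0.40 over 0.63 to 0.89, was above all controls in 6 of 6 mice and differed by 0.70 ± 0.15 (adjusted p = 0.00299). Its call was lost in 6 of 12 fits without 1 mouse (control replicates 1, 2 and 3, 4 Gy replicates 1, 4 and 5), with differences from 0.65 to 0.70.

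Cx3cr1 moved the other way at this day and dose, with all 6 mice below all controls. Its difference of -0.98 ± 0.24 (adjusted p = 0.00601) missed the threshold on p. It was called with 75th percentile centring, at -0.99, without the 1.5-fold filter, at -0.98, and without 4 Gy replicate 1, at -1.13. Its probes disagreed here. The brightest and 1 other gave -0.98 and -1.04 and the third gave 0.32. No scan date held both 4 Gy x-ray mice and controls at day 7, all 6 mice being scanned on 1 date and the controls on another, so that exposure cannot be told apart from date there.

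After 1 Gy x-rays at day 7 no member was called by limma, where 4% of all genes were, and 1 member, Ace, had an unadjusted p below 0.05, with 0.67 ± 0.22. Without replicate 5, which had the lowest Cx3cr1 and Fcgr1 of its group, Ace was called, at 0.86 (adjusted p = 0.0111). Over the settings tried with all mice its difference ran from -0.24 to 0.95. No scan date held both 1 Gy x-ray mice and controls at day 7, so that exposure cannot be told apart from date here. After 0.25 Gy neutrons 0 members were called by limma, where 0.0276% of all genes were. Nr4a1, with 0.54 ± 0.19, was the 1 member with an unadjusted p below 0.05, and ran from -0.57 to 0.76 over the settings.

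Between 1 Gy neutrons and 4 Gy x-rays at day 7, 3 of 8 members were called, 2 higher after neutrons and 1 lower, where 41.9% of all genes were called, 31% higher and 10.9% lower, or 3371 and 1182 genes. Csf1r was higher after neutrons by 1.01 ± 0.20 (adjusted p = 0.000614) and Ace by 0.73 ± 0.16 (adjusted p = 0.0012), while with spike-in centring they were called lower, at -1.28 and -1.57, and with normexp correction Csf1r differed by -0.28 and was not called. Cd14 was lower after neutrons, at -1.83 ± 0.25 (adjusted p = 2.59e-05), and kept this sign in every setting. None of the 3 had overlapping groups, a trait for which no share over all genes is given.

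With spike-in centring 7 members were called in this comparison, all lower, with 137 genes higher and 7197 lower, and with quantile normalization 2465 genes were higher and 1609 lower and Csf1r, at 0.07, was not called. With dim spots set to missing Ace and Csf1r differed by 0.16 and 0.45 and were not called. With the Kupffer cell level as a covariate none of the 3 was called, at 0.60 for Csf1r, 0.73 for Ace and -1.15 for Cd14. These groups did not overlap in that level, so that the fit separates it from exposure poorly. The call of Ace was lost in 6 of 12 fits without 1 mouse (neutron replicates 1, 2 and 6, 4 Gy replicates 2, 3 and 4), where it differed by 0.67 to 0.74. On the 1 scan date shared by 1 neutron mouse and 6 x-ray mice, Csf1r, Ace and Cd14 differed by 1.42, 1.02 and -2.00, and with the date as a block none was called. Between 1 Gy neutrons and 1 Gy x-rays at day 7 no member was called by limma, where 23% of all genes were. Of the members 2, Ace and Csf1r, had an unadjusted p below 0.05, with differences of 0.75 ± 0.22 and 0.77 ± 0.24. Their sign rested on the setting, with Ace from -0.39 to 0.94 and Csf1r from -0.83 to 0.99. Spike-in centring moved the median of all genes there from 0.34 to -0.80.

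The change of an effect from day 1 to day 7 was tested as the day 7 difference less the day 1 difference in a fit of the 4 groups. Ace rose between the days in 3 of the 4 exposures, by 1.95 ± 0.35 after 1 Gy neutrons (adjusted p = 7.74e-05), by 1.87 ± 0.28 after 1 Gy x-rays (adjusted p = 0.000106) and by 2.42 ± 0.29 after 4 Gy x-rays (adjusted p = 3.17e-06), and by 0.78 ± 0.35 after 0.25 Gy neutrons, which was not called. The exposures of a day share their controls. No scan date held x-ray mice and controls of the same day at day 1 or day 7. In the x-ray changes exposure thus cannot be told apart from date. Of the 1 Gy neutron mice at day 7, 1 shared a scan date with the controls. Nr4a1 rose by 1.47 ± 0.35 after 1 Gy neutrons (adjusted p = 0.00144) and by 1.51 ± 0.34 after 4 Gy x-rays (adjusted p = 0.0015). With spike-in centring the changes after 1 Gy neutrons were -0.59 for Ace and -1.13 for Nr4a1, neither called, while those after x-rays kept their sign, at 0.82 for Ace after 1 Gy, not called, and 2.40 for Ace after 4 Gy. With normexp correction the changes after 1 Gy neutrons were 1.03 for Ace and 0.16 for Nr4a1, neither called, and Ace after 4 Gy x-rays was called at 1.16. The change of Ace after 0.25 Gy neutrons ran from -0.34 to 0.91 over the settings tried.

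Treml4 rose between the days after 4 Gy x-rays, by 1.42 ± 0.33 (adjusted p = 0.00167, and 0.55 and not called with normexp correction), as did Spn, by 1.31 ± 0.33 (adjusted p = 0.00359 over all detected genes, of which 19.8% were called). This test called 2 of 8 members for 1 Gy neutrons, 1 of 8 for 1 Gy x-rays and 3 of 8 for 4 Gy x-rays, all of them higher, where 28.7%, 8.68% and 22.4% of all genes were called and 21.4%, 6.83% and 12.4% were called higher. After 0.25 Gy neutrons none was called by limma, with 1.32% of all genes called and 3 members at an unadjusted p below 0.05. The controls of the 2 days were also compared, and 0 of 8 members were called, where 5.18% of all genes were. Of the 3 members with an unadjusted p below 0.05, Fcgr1 was 1.18 ± 0.27, Cd14 1.29 ± 0.48 and Cx3cr1 0.55 ± 0.18 above day 1 at day 7. Ace differed by -0.32 ± 0.19 between the control groups. No scan date held controls of both days, so that day cannot be told apart from date there.

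**Figure D4:**
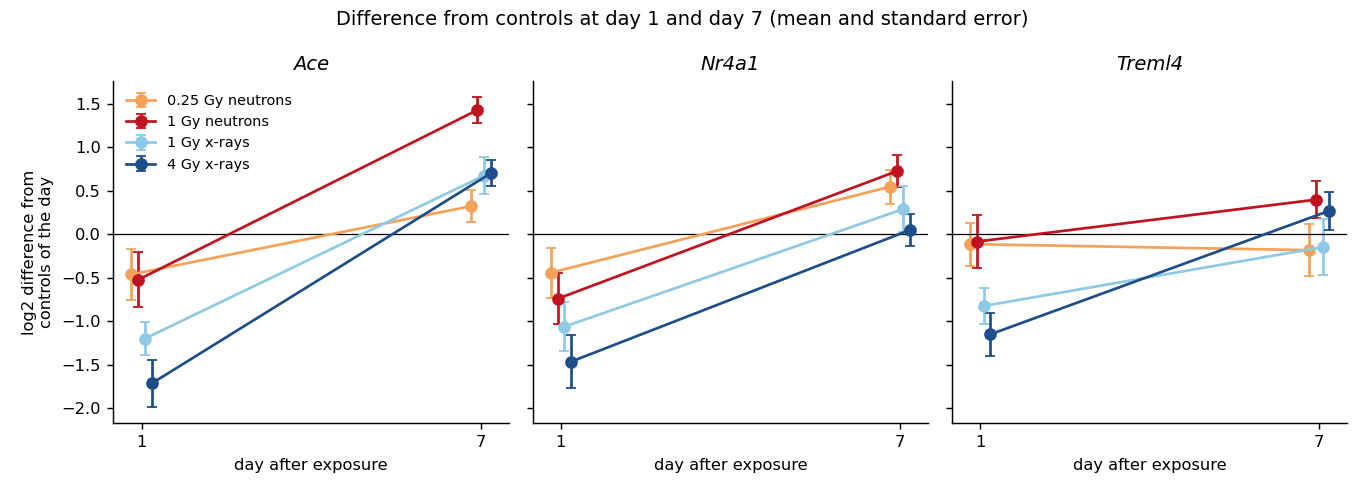
Difference from the controls of the day (vertical axis, log2, mean and 1 standard error) for Ace, Nr4a1 and Treml4 at days 1 and 7 (horizontal axis) after each exposure. Lines of Ace climb from below 0 at day 1 to above 0 at day 7 in all 4 exposures, the change after 0.25 Gy neutrons not being called, and that after 1 Gy neutrons is -0.59 with spike-in centring.

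The levels of a gene in the 13 groups formed a nearly continuous order. Of 108 steps between neighbouring group means, 4 were larger than the larger SD of the pair. These were the steps from 4 Gy x-rays at day 1, the lowest group, to the next in Cx3cr1 (0.63 ± 0.72 to 1.63 ± 0.82, SD) and Ace (-1.44 ± 0.50 to -0.93 ± 0.23), and the steps to 1 Gy neutrons at day 7, the highest group, in Csf1r (5.74 ± 0.39 to 6.31 ± 0.36) and Ace (0.66 ± 0.20 to 1.38 ± 0.21). These are median-centred levels, and with spike-in centring Csf1r and Ace in the latter group differed from controls by -1.08 and -0.63. The lowest mean of Nr4a1, Treml4 and Spn was also that of 4 Gy x-rays at day 1, at 2.10, -2.14 and 3.30. The highest means of Cd14 and Fcgr4 were those of 4 Gy x-rays at day 7, at 0.62, and of 1 Gy neutrons at day 1, at 2.94. Fcgr1 ran from -2.17 after 1 Gy x-rays to -0.71 after 1 Gy neutrons, both at day 1, with SDs of 0.68 and 0.69, and no step between neighbours exceeded its SD.

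Mice of 1 group were also compared with each other, through their deviations from the group mean. These correlations share the arrays, their depth and their centring, and are given as a description. Among 36 pairs of members, 31 had a positive r, with a median of 0.49. Cx3cr1 and Nr4a1 followed each other most closely (r = 0.87 over 71 mice), then Nr4a1 and Treml4 (0.79) and Ace and Treml4 (0.75). Without the replicate of 0.25 Gy neutrons that stood apart, the median was 0.47 and the highest r 0.85. Cd14 stood outside, at -0.29 with Cx3cr1 and at most 0.46, with Fcgr1.

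Set against the marker lists, Cd14 followed the Kupffer cell genes (r = 0.84 over 72 mice, and 0.91 over the 13 group means), and its r with the hepatocyte genes was -0.09. Kupffer cells are the macrophages of the liver. With the hepatocyte genes Cx3cr1, Nr4a1, Ace and Treml4 had r of -0.49, -0.57, -0.45 and -0.49 within groups, and -0.80, -0.84, -0.70 and -0.46 over the group means. With the erythroid genes these 4 had r of 0.40, 0.50, 0.58 and 0.47 within groups, and 0.87, 0.93, 0.85 and 0.59 over the group means. Within groups Cx3cr1, Nr4a1, Ace and Treml4 had r of -0.47, -0.45, -0.28 and -0.34 with the Kupffer cell genes. With the genes of natural killer (NK) cells, which also express Cx3cr1, they had r of 0.65, 0.70, 0.59 and 0.65. With the dendritic cell genes they had r of 0.65, 0.68, 0.40 and 0.52. Spn, which T cells and NK cells carry as well, had an r of 0.82 with the NK cell genes. The neutrophil genes were closest to Fcgr4, at 0.60.

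**Figure D5:**
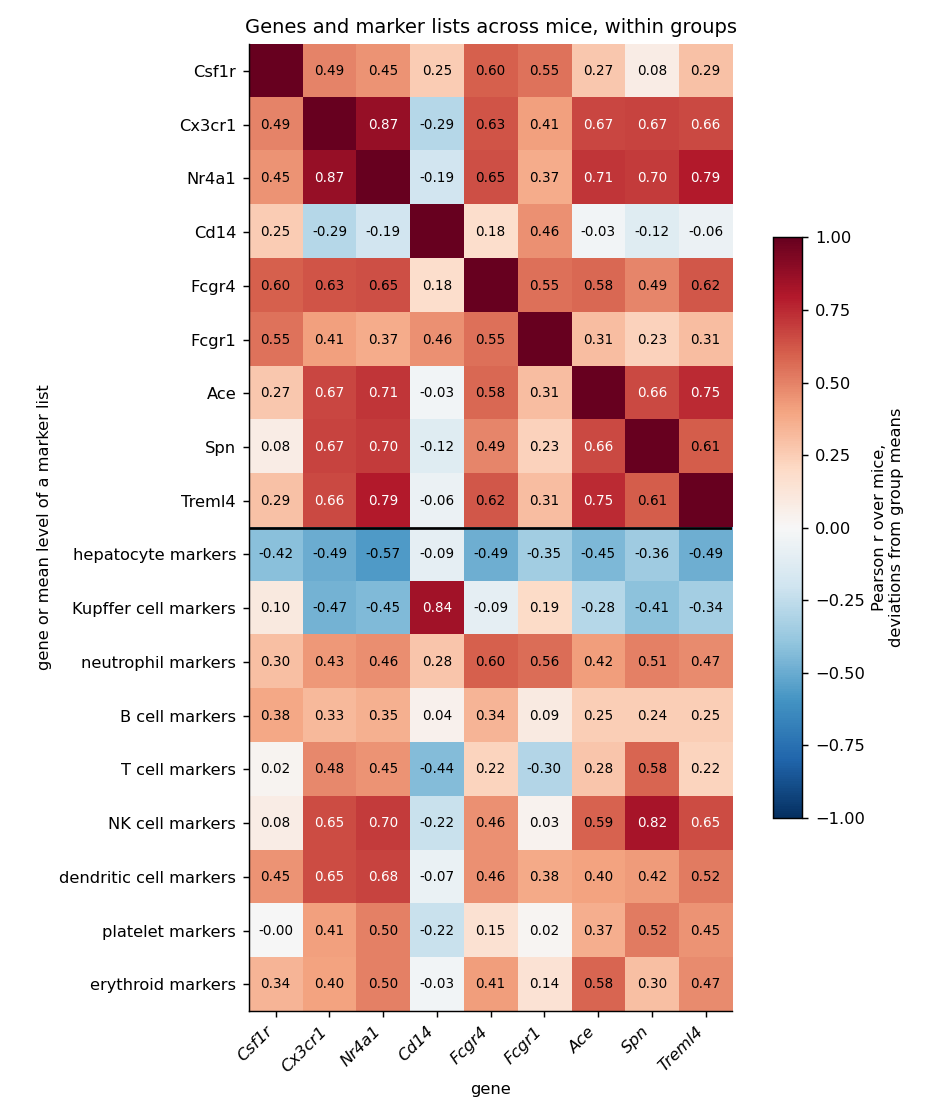
Pearson r, by colour and number, between the 9 genes (columns) and the same genes or the mean level of a marker list (rows), over deviations of single mice from their group mean. Cx3cr1, Nr4a1, Ace, Spn and Treml4 are joined by r of 0.61 to 0.87, and Cd14 by 0.84 to the Kupffer cell markers.

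Over the 13 group means, the genes most like each called member were found among 10855 others. For Cx3cr1 they were Gm5086 (r = 0.98), BC028528 and Plxdc1 (both 0.96), for Nr4a1 Tmem255b (0.98), Grk3 and Hbq1b (both 0.97), and for Ace, besides a transcript without a symbol, Ankrd9 and Mapk8ip3 (both 0.94). Cd14 had Prg4, Cfp (both 0.98) and Plxdc2 (0.97), and Csf1r, besides a probe without a symbol, Tmem108 and Ephb2 (both 0.98). Fcgr4 had Gbp2 (0.92), Tgm2 and Med25 (both 0.87), and Treml4 had Taf6l (0.89), Ear10 (0.88) and Adgre4 (0.84), the last a receptor of non-classical monocytes that is in the list of that subset below.

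Other genes of the lineage were read from 7 lists, on the median-centred scale. With spike-in centring the median of all genes after 1 Gy neutrons at day 7 was -1.75, and values that turn their sign there are named. Of 14 genes typical of non-classical cells beside the members, 10 were tested, and 4 were called 1 day after 4 Gy x-rays, 3 lower and 1 higher, where 35.1% of all genes were called, 18.6% lower and 16.5% higher. Stap1, Cd36 and Adgre4 were lower, at -2.43, -2.14 and -1.11 (adjusted p = 3.44e-05, 0.000192 and 0.00137), and Apoc2, which hepatocytes also make, was higher by 2.93. The median of the 10 was -0.89 against 0.00 over all genes. Between the days 5 of the 10 rose after 4 Gy x-rays, where 12.4% of all genes were called higher, and their median change was 1.26 against -0.06 over all genes. The scavenger receptor gene Cd36 differed by -1.77 at day 1 in mice given 1 Gy x-rays, and by 1.81 after 1 Gy neutrons at day 7, or -0.25 with spike-in centring. The erythroid markers averaged 1.31 and 6.77 in these groups, against 3.73 and 4.07 in their controls. Stap1 was also called lower after 1 Gy neutrons, at -1.71 on day 1 and -0.84 on day 7. In the day 7 mice given 4 Gy x-rays, Stap1 was called at -1.05 and Itgax at 1.21. The part of other blood cells in these changes was not tested.

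Of 13 genes typical of classical cells, 11 were tested. After 4 Gy x-rays at day 1 Mgst1, Hp and Fn1 were called higher, by 3.93, 3.68 and 3.08, and 0 were lower, where 16.5% of all genes were called higher and 18.6% lower, and the median of the 11 was 0.14. All 3 are also made in quantity by hepatocytes, whose markers were high in these mice, and the part of these cells in the change was not tested. At day 7 after 4 Gy x-rays Ccr2, the chemokine receptor by which classical cells leave the marrow, was 0.96 higher (adjusted p = 0.00432) and Hp 1.45 higher. After 1 Gy neutrons 1 of 11 was called at each day, where 17.5% of all genes were called at day 1 and 38.4% at day 7, Fn1 at day 1 (2.42) and Itgam, the integrin CD11b, at day 7 (2.74, or 0.68 and not called with spike-in centring). F13a1, a coagulation factor of monocytes and platelets, was higher by 2.05 after 1 Gy x-rays at day 3.

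Of 14 transcription factors of the lineage, 12 were tested, and 5 were called 1 day after 4 Gy x-rays and the same number after 1 Gy neutrons, 3 higher and 2 lower in both, against controls that these comparisons share, where 35.1% and 17.5% of all genes were called. Irf8, which directs monocyte precursors and is also high in B cells, was lower, at -1.89 and -1.19, and Pou2f2, a factor of B cells and monocytes, at -2.74 and -1.45. Cebpa, used by myeloid precursors and hepatocytes, was higher by 2.87 and 2.02. At day 7 Klf2 was lower in 3 exposures, at -1.27 after 1 Gy neutrons, -0.80 with 1 Gy x-rays and -0.89 with 4 Gy x-rays.

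Of 17 genes of the CD14 and TLR4 pathway, 9 were tested. Lbp, the liver-made protein that hands lipopolysaccharide to CD14, was higher at day 1, by 4.29 with 4 Gy x-rays and 3.58 with 1 Gy neutrons, and by 3.22 at day 7 with 4 Gy x-rays. Cd180 and Ly86, a receptor pair of B cells and myeloid cells that resembles the TLR4 complex, were lower, at -1.86 and -1.72, after 4 Gy x-rays at day 1. Of 9 further Fc receptor genes and partners, 7 were tested. At day 7 after 1 Gy neutrons 4 of the 7 were called, where 38.4% of all genes were. Syk, Fcgr2b and Fcgrt were lower, at -1.39, -1.05 and -0.83, and Fcer1g, the signalling chain of Fcgr1 and Fcgr4, was higher by 0.94, or -1.12 with spike-in centring. Syk was also lower after 4 Gy x-rays at that day, at -0.94.

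Ligands and signalling partners of CSF1R and CX3CR1 gave 3 tested genes of 9, and Cbl, the ubiquitin ligase that ends CSF1R signalling, was higher by 1.76 and 1.62 at day 7 after 1 and 4 Gy x-rays. Of 7 genes of the TREM family and its partners, 5 were tested and 1, Trem1, was called, higher by 1.19 after 1 Gy neutrons at day 1, where 17.5% of all genes were called. After 0.25 Gy neutrons no gene of the 7 lists was called by limma on day 1, 3 or 7, where 0.00921%, 1.17% and 0.0276% of all genes were called.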

How the data were processed

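RNA of 72 mice was measured on Agilent single-colour mouse arrays. The deposited intensities were made by the authors with Agilent Feature Extraction 12.0.2 (per the labels), which subtracted background and flagged poor spots; nothing was normalized between arrays. The authors also deposited a table of normalized log2 values, of whose 72 columns 12 follow the array of their own sample and 60 another, 21 of them in another group. In 72 of 72 columns the array followed is the one that a different alphabetical order of the array names gives, so the arrays' own files were used, and the table only for 0.25 Gy neutrons at day 1.

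Here, following the article's methods, intensities were log2-transformed, non-uniform and outlier spots dropped, and the median of the detected probes subtracted array by array. Probes had to be good in more than 75% of spots and to vary 1.5-fold in 20% of the 56 arrays of mice bled at day 1 or 7, with the brightest probe standing for a gene. Groups from the labels were compared with limma 3.58.1 (R 4.3.3, lmFit and eBayes, 2-sided, checked on simulated data), p adjusted over all genes after Benjamini and Hochberg. Every adjusted p is from limma. The number of mice limits the precision, and p-values measure the spread between mice.

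The 9 genes and the lists were chosen with earlier results of these data known. Named were the 9 genes in every comparison, per list and comparison with controls up to 3 called genes in each direction with the largest change, the 3 most similar genes of each called member, and the 2 brightest markers of lists that moved. Alternatives were other scalings, backgrounds, filters, probes, scan date, slide, replicate block, hepatocyte and Kupffer cell covariates, a shared spread and leaving out each mouse. Arrays with the same scan time were taken as being on the same slide. Normexp correction used an offset of 50. Some called genes of the lists are not reported here.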

Additional observations from a re-analysis of the deposited data

Results flagged for a closer look

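Of 117 gene and group combinations, 11 had a mouse set apart from the rest of its group by a gap that chance gives in about 1 in 20 groups. Replicate 5 of 0.25 Gy neutrons at day 1 was lowest in 4 genes, Cx3cr1 at 0.68 with the next mouse at 2.32, Nr4a1 at 1.97 (next 3.10), Spn at 1.60 (next 3.87) and Treml4 at -1.99 (next -1.04). The same mouse had the highest hepatocyte level of its group, 8.70, and the lowest NK cell level, -0.26. Replicate 5 of 1 Gy x-rays at day 7 was lowest in Cx3cr1 at 1.77 and in Fcgr1 at -1.98. Replicate 1 of the day 3 controls was highest in Fcgr1 at -0.55 and in Treml4 at -0.92. The others were single genes, namely Cx3cr1 at 0.59 in replicate 1 of 1 Gy x-rays at day 1, Fcgr4 at 3.03 in replicate 4 of 1 Gy neutrons at day 7 and Treml4 at -2.16 in replicate 5 of the day 7 controls.

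The effect of an exposure differed between day 7 and day 1, in the test of that difference itself, for Ace after neutrons at 1 Gy (1.95) and x-rays at 1 Gy (1.87) and 4 Gy (2.42), for Nr4a1 after 1 Gy neutrons (1.47) and 4 Gy x-rays (1.51), and for Treml4 (1.42) and Spn (1.31) after 4 Gy x-rays. In the x-ray exposures no scan date held both exposed mice and controls of the same day.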

How the results depend on the processing

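Over called members and comparisons, 272 of 303 fits without 1 mouse kept direction and call, 31 lost the call and 0 turned direction. Over the other settings 206 of 291 kept both, 76 lost the call and 9 turned direction. Spike-in centring turned Ace (-0.63) and Csf1r (-1.08) after 1 Gy neutrons at day 7, both genes against 4 Gy x-rays at day 7 (-1.57 and -1.28), and the change between the days of Ace (-0.59) and Nr4a1 (-1.13) after 1 Gy neutrons. Normexp correction turned Csf1r in the first comparison (-0.45) and the second (-0.28), and the Kupffer cell covariate turned Cd14 1 day after 4 Gy x-rays (-0.13). Spike-in centring moved the median of all genes from 0.31 to -1.75 after 1 Gy neutrons at day 7 and from 0.26 to -2.03 against 4 Gy x-rays. The cause was not tested for any of these changes.

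The number of members called moved by more than 1.5 times as follows. For day 1 and 4 Gy x-rays, with 5, it was 3 with spike-in centring, 1 with normexp correction, 0 with the hepatocyte or Kupffer cell covariate, and 3 to 5 without 1 mouse. For 1 Gy x-rays at day 1, with 1, it was 2 with quantile normalization, 75th percentile centring, no 1.5-fold filter or a shared spread, 0 with spike-in centring, normexp correction or the scan date block, and 1 to 3 without 1 mouse. For 1 Gy neutrons at day 1, with 0, it was 3 with the slide block, 2 with a shared spread and 0 to 1 without 1 mouse. Against 1 Gy x-rays at day 1, with 1, it was 0 with spike-in centring, normexp correction, the scan date or the slide block, 2 with a shared spread and 1 to 2 without 1 mouse, and against 4 Gy x-rays, with 0, it was 2 with spike-in centring, the slide block or a shared spread. For 0.25 Gy neutrons at day 7, with 0, it was 1 with spike-in centring. For 1 Gy neutrons at day 7, with 2, it was 5 with spike-in centring, 0 with normexp correction, 1 with quantile normalization, 75th percentile centring, dim spots missing, the mean over probes, the scan date or the slide block, and 1 to 2 without 1 mouse. For 4 Gy x-rays at day 7, with 3, it was 1 with spike-in centring or normexp correction, 0 with the Kupffer cell covariate or a shared spread, and 2 to 3 without 1 mouse. For 1 Gy x-rays at day 7, with 0, it was 0 to 1 without 1 mouse. With 1 Gy neutrons set against 4 Gy x-rays at day 7, with 3, it was 7 with spike-in centring, 0 with normexp correction, the scan date block or the Kupffer cell covariate, 1 with a shared spread and 2 to 4 without 1 mouse.

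For the change between the days after 1 Gy neutrons, with 2, it was 4 with spike-in centring, 0 with normexp correction, 1 with quantile normalization or the Kupffer cell covariate, and 2 to 3 without 1 mouse. After 1 Gy x-rays, with 1, it was 2 with quantile normalization or the hepatocyte covariate, 0 with spike-in centring and 1 to 2 without 1 mouse. After 4 Gy x-rays, with 3, it was 1 with normexp correction or the Kupffer cell covariate. Between the control days, with 0, it was 1 with quantile normalization, no 1.5-fold filter or the mean over probes, and 0 to 1 without 1 mouse. The slide block and the Kupffer cell covariate were chosen after seeing the data. Kupffer cell levels after 4 Gy x-rays or 1 Gy neutrons at day 1 did not overlap those of controls. The covariate therefore separates poorly from exposure there.

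Replicate numbers did not pair the mice, since same-numbered mice had correlations of their deviations from -0.55 to 0.64, and 0 comparisons had every pair over 0.1. With the replicate block, 1 member was called after 1 Gy neutrons at day 7, 1 at that day in the mice given 4 Gy x-rays, 1 between these groups, 1 for the change between the days after 1 Gy neutrons and 1 between the control days.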
